A study of Homo sapiens with 6 samples.

Results

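The transcriptome of LPS-activated macrophages derived from THP-1 cells is described here from the 3 libraries that received a control siRNA, out of 6 libraries in the series. They were chosen by their label alone. THP-1 is a human monocytic leukaemia line, and it grows as monocyte-like cells in suspension. Each control library came from THP-1 cells treated with 50 ng/ml of the phorbol ester PMA for 48 h, then with 200 nM of the control siRNA (labelled NC) in RNAiMAX for 48 h, then with 200 ng/ml lipopolysaccharide (LPS) for 3 h. Poly-A RNA was sequenced as paired ends. Every library of the series had PMA, an siRNA and LPS, so no value below is set against cells without them. What each agent adds to a level cannot be told apart. Nothing in the labels tells whether libraries 1 to 3 were separate cultures, and the spread between them may be technical. The 3 libraries held 16588112, 15978370 and 15874084 counts over 19976 genes, which are nearly all protein-coding.

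LPS is a cell wall component of Gram-negative bacteria. CD14 passes it to the receptor complex of TLR4 and MD-2 (gene LY96). From there the adaptors MYD88 and TIRAP lead to NF-kB and MAP kinases, which switch on cytokine and chemokine genes. The adaptors TICAM1 and TICAM2 lead to the kinase TBK1, to interferon beta and, through its receptor, to the interferon-stimulated genes. PMA activates protein kinase C, and in THP-1 cells it stops growth and gives adherent, macrophage-like cells. PMA also acts on NF-kB and AP-1 by itself.

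A gene is called on here where its FPKM, the authors' count scaled to exonic length in kilobases and to the library's total, was at least 1 in each of the 3 libraries. By this rule 9004 genes were on, or 45.1% of those listed. A gene is called at the floor where it had at most 3 counts in each library, and 5842 genes, or 29.2%, were there, of which 4065 had 0 counts in all 3. At these depths 3 counts corresponded to 0.181, 0.188 and 0.189 CPM (counts scaled to the library's total), so a gene at the floor was not detectable above that level, which covers counting error only. The 5130 genes that met neither rule are called between.

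Control library 1 stood apart from the others. The log2 CPM of this paragraph is on library sizes scaled by TMM in edgeR, not on the library's total alone. Pearson's r of log2 CPM across genes was 0.975 between libraries 1 and 2, 0.982 between libraries 1 and 3, and 0.995 between libraries 2 and 3. The median absolute log2 difference of a gene was 0.33 and 0.29 between library 1 and libraries 2 and 3, and 0.12 between libraries 2 and 3. Library 1 was the library farthest from the mean for 65.8% of the 11949 genes with at least 10 counts in each. The difference followed gene length. Of 10 nearly equal groups of genes by exonic length, the shortest (median 1708 bases) had a median log2 CPM in library 1 that differed by -0.57 from the mean of libraries 2 and 3, and in the longest (median 13213 bases) the difference was 0.34. Across genes, Spearman's rho between exonic length and this difference was 0.54, with no p because genes are not independent replicates. Short genes therefore tended to read lower in library 1. The cause was not tested.

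**Figure D1:**
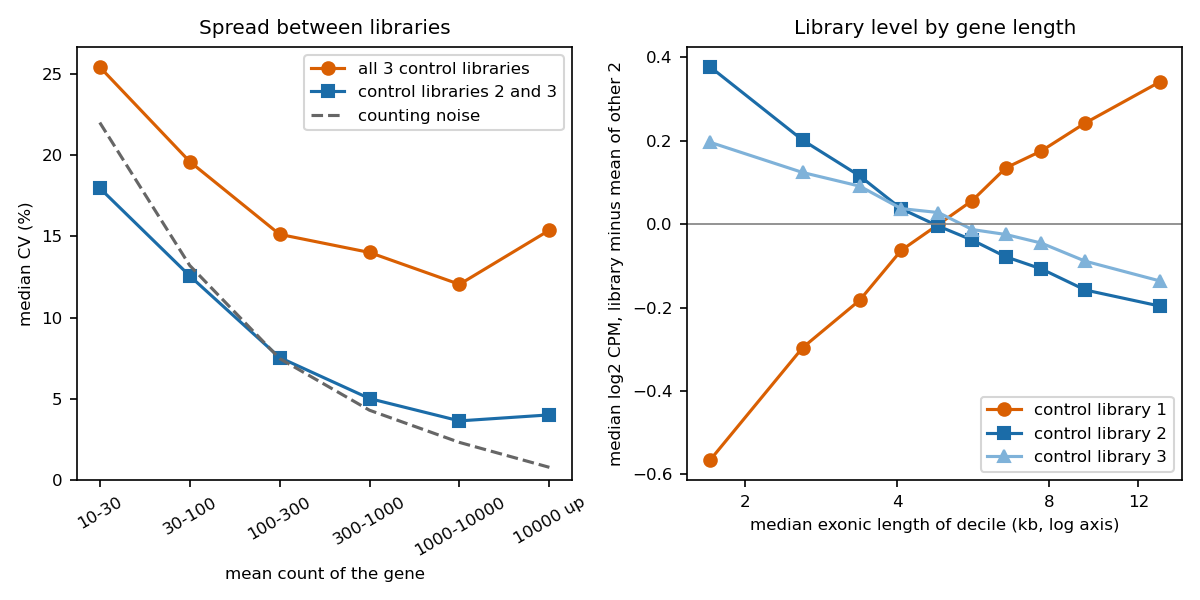
The left panel plots the median coefficient of variation (CV, %) of genes between libraries against the genes' mean count, for all 3 control libraries, for libraries 2 and 3 alone, and for counting noise. The right panel plots, for 10 nearly equal groups of genes ordered by exonic length (kb, log axis), the median log2 CPM of each library minus the mean of the other 2. CPM in both panels is on library sizes scaled by TMM. The line of library 1 climbs from -0.57 in the shortest genes to 0.34 in the longest, while those of libraries 2 and 3 descend. In the left panel, CVs of 2 libraries are not on the scale of counting noise and lie under it at low counts.

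The RNA of these cells was concentrated in a few genes. Of the summed mean FPKM, 5 genes held 10%, 22 genes 25%, 150 genes 50% and 3022 genes 90%. In all 3 libraries at once, 3165 genes reached 10 FPKM, 349 reached 100 FPKM, 36 reached 1000 FPKM and 3 reached 5000 FPKM. The median gene that was on had a mean of 6.75 FPKM. The 25 genes with the highest mean took 24.98%, 27.8% and 27.4% of the summed FPKM in libraries 1 to 3, and 11.2%, 13.1% and 12.7% of the counts. These 25 genes were also the 25 highest within libraries 2 and 3, and 22 of them were among the 25 highest of library 1.

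A ferritin chain, inflammatory mediators and an interferon-stimulated gene led the ranking by mean FPKM. FTL, the light chain of the iron store ferritin, was first, with 8431, 13252 and 12824 FPKM in libraries 1, 2 and 3. CXCL8, the chemokine interleukin-8 that draws neutrophils, had 8617, 7407 and 7656 FPKM. It was the highest gene of library 1 and the second of libraries 2 and 3. CCL3L1, a CC chemokine that macrophages secrete, followed with 3976, 6462 and 5756 FPKM. How reads were divided between CCL3L1 and its near-identical neighbour CCL3 is not known, so the rank of CCL3L1 is uncertain. IL1B, the pyrogenic cytokine that caspase-1 matures, had 5142, 5367 and 5108 FPKM. IFI6, an interferon-inducible mitochondrial and membrane protein, had 3246, 5820.3 and 5909.7 FPKM. CXCL8 and IL1B held a similar level in all 3 libraries (CV 2.29% and 7.44%). FTL, CCL3L1 and IFI6, which have shorter exonic lengths than IL1B, were lowest in library 1 (CV 27.9%, 28.5% and 34.5%). These CVs, like those below, are of CPM on library sizes scaled by TMM in edgeR, not of the FPKM printed beside them. FTL lies at chromosome 19, 48965309 to 48966879, plus strand; CXCL8 at chromosome 4, 73740541 to 73743716, plus strand; and IL1B at chromosome 2, 112829751 to 112836816, minus strand (GRCh38, as the table gives them).

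The other 20 genes of the top 25 fall into a few kinds. Of the mitochondrial genome's protein genes 5 were there, MT-CO1, MT-CO2, MT-CO3, MT-ND1 and MT-ND4, with means between 2413 and 4253 FPKM. Inflammatory effectors were CCL5, CCL4L2, TNF and the ubiquitin-like interferon product ISG15. Secreted or lysosomal macrophage proteins were the gelatinase MMP9 at 2589.6 ± 233 FPKM (SD, n = 3), its inhibitor TIMP1 (1237, 2282 and 1982 FPKM), the chitinase-like CHI3L1 at 1539.5 ± 44.0 FPKM, the cathepsin CTSL (1299, 1618 and 1666 FPKM) and the galectin LGALS1 (1115, 2118 and 1834 FPKM). The rest were the ferritin heavy chain FTH1 (2070.0, 2863 and 2793 FPKM), the actin-binding peptide TMSB10 and actin itself (ACTB), the calcium-binding S100A11 (1444, 2419 and 2234 FPKM), the RNA-binding YBX1 and FCER1G, the gamma chain shared by Fc receptors (1111, 1538 and 1445 FPKM). TMSB10 showed how far library 1 could lie from the rest, with 2279.6 FPKM there, 4887 in library 2 and 4029.7 in library 3. TNF lay within 1556 to 1573 FPKM in all 3.

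**Figure D2:**
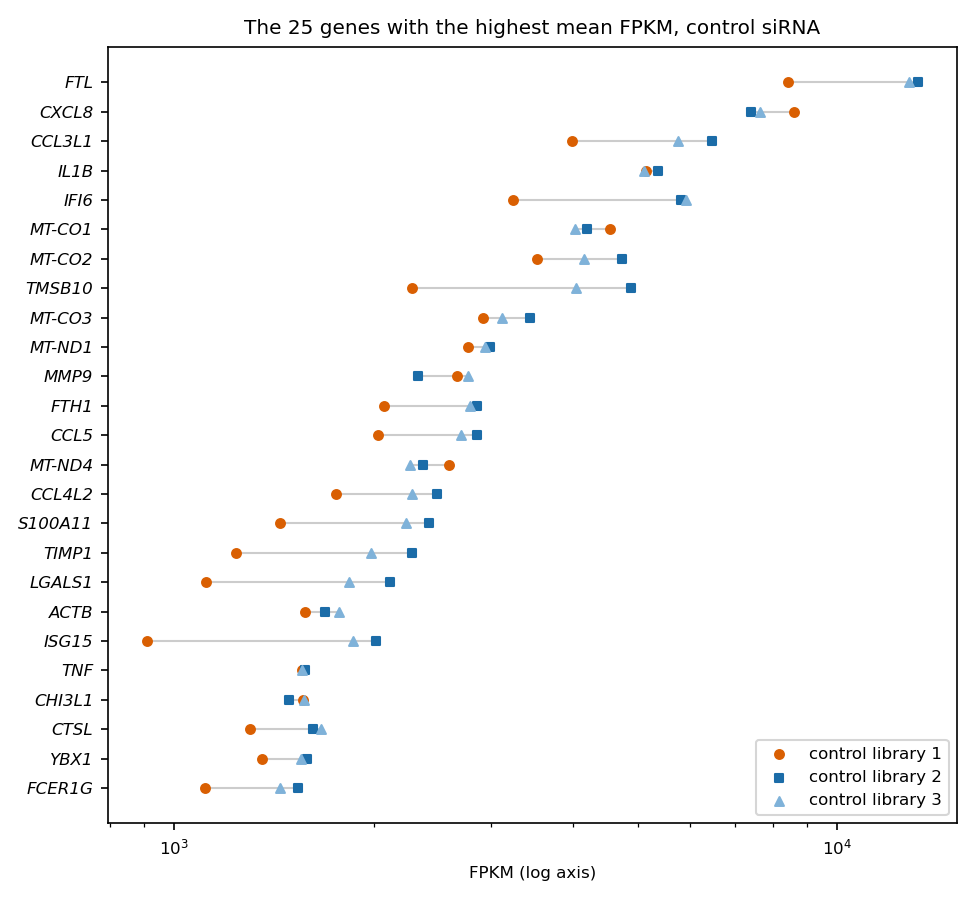
FPKM (log axis) of the 25 genes with the highest mean in the 3 control libraries, each point being 1 library. FTL and CXCL8 lead in every library, and the points of library 1 lie to the left for short genes such as TMSB10 and ISG15 (908, 2016 and 1862 FPKM), while those of TNF and IL1B fall close together.

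Ranking by counts, without division by length, gave another order. Only 14 of the 25 genes highest by FPKM were also among the 25 highest by CPM. CXCL8 (17674 CPM), IL1B (15664 CPM), FTL (10018 CPM) and B2M (8268 CPM) led there, and 468 genes made up 50% of the total, against 150 by FPKM. The authors' lengths count all exonic bases of a gene. SOD2, the LPS-inducible mitochondrial superoxide dismutase, has 16431 such bases and was the 26th gene by CPM but the 219th by FPKM.

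All 5 genes named as markers of this state were on in every library. IL1B was the 4th gene by mean FPKM and TNF, the founding member of its cytokine family, the 21st, at 1557, 1573 and 1556 FPKM. B2M, the invariant chain of MHC class I, was the 26th, at 1212, 1428 and 1441 FPKM. SOD2 had 213, 153 and 169 FPKM under its main identifier ENSG00000112096, and 5, 6 and 9 counts under a second one, 90.5% of whose exonic bases lie in other genes. CD14, the LPS co-receptor, had 103, 149 and 146 FPKM, rank 312. B2M and CD14 were lowest in library 1, SOD2 highest there, and TNF and IL1B nearly level.

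Genes with most of their exonic bases inside exons of other genes were seldom on, while smaller overlaps showed no such order. Exons were compared with GENCODE release 29. Of 11098 genes with no exonic base inside an exon of another gene, 43.2% were on and 33.5% at the floor. With an overlap above 0 and under 20%, 56.2% of 6276 genes were on and 15.2% at the floor, and from 20% to under 50%, 42.5% of 1436 genes were on and 22.3% at the floor. Of 505 genes with at least 90% of their exonic bases inside exons of others, 4 were on (0.792%) and 483 at the floor (95.6%). Between 50% and 90%, 11.2% of 599 genes were on. How reads on such bases were counted is not given in the sources used here, and its part in these values was not tested. CD68, a classical macrophage marker, shows the limit: 85.8% of its exonic bases lie in other genes and it had 1, 2 and 5 counts. EEF1G, an elongation factor subunit, has 99.9% of its bases in another gene and 0 counts. Among the 714 list members described below, 14 had at least 50% of their exonic bases in other genes, namely ALDOA, ATP6V0C, CCL27, CCL3, CD68, CTSD, EEF1G, FTH1, NUSAP1, PYCARD, RPL10, SRXN1, TICAM2 and TLR9. Low values of these 14 are not read as absence.

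**Figure D3:**
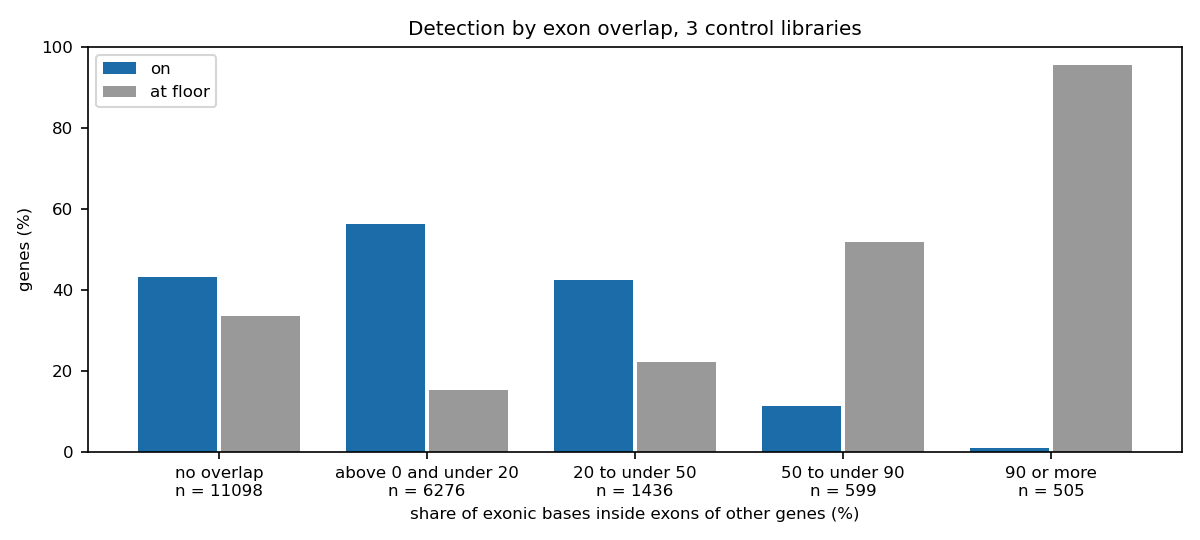
Share of genes (%) called on or at the floor in the 3 control libraries, by the share of a gene's exonic bases that lie inside exons of other genes. The group with 90% or more has 0.792% on and 95.6% at the floor, against 43.2% and 33.5% in the group without overlap, while the group above 0 and under 20% has 56.2% on and 15.2% at the floor.

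Programmes were read from 41 gene lists with 714 distinct members in the table, of which 511, or 71.6%, were on, beside 45.1% of all genes. Most lists hold genes known from macrophages or from every cell, so this difference follows from their choice. The lists were also written with earlier results of these data known. In 5 lists every member was on, and in 3 lists none was. The background for every list below is the same 45.1% of all genes on, with a median of 0.757 FPKM.

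**Figure D4:**
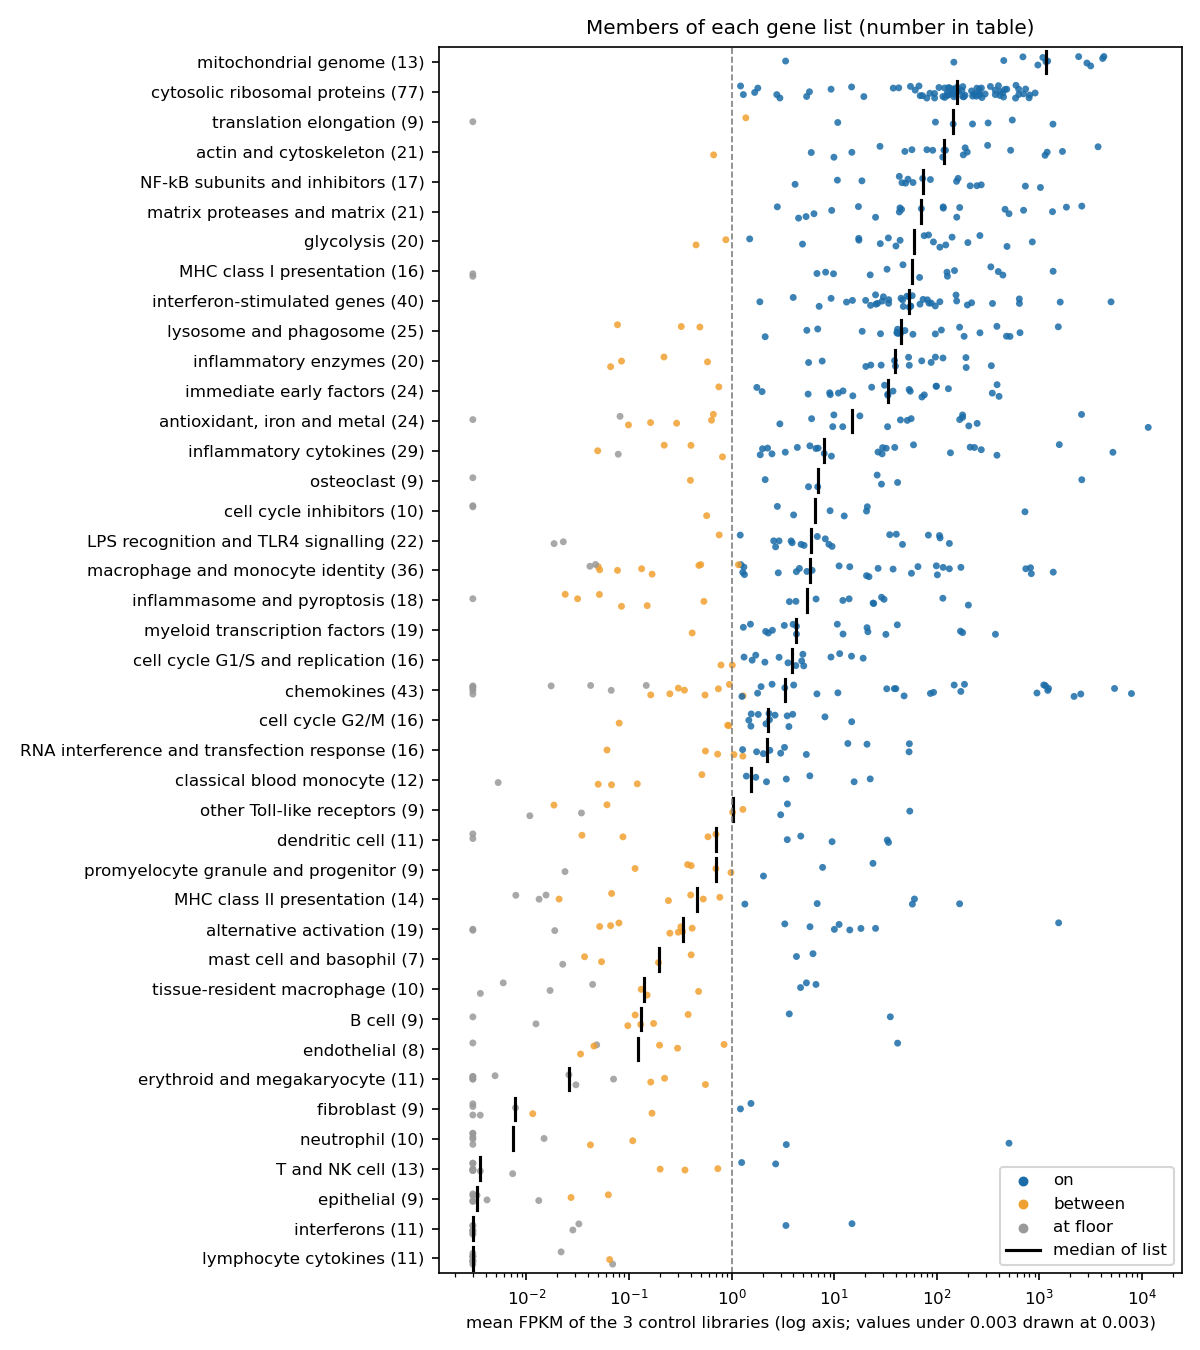
Mean FPKM of the 3 control libraries (log axis) for the members of each of 41 gene lists, 1 point per gene, with the list's median as a bar and a dashed line at 1 FPKM. Mitochondrial, ribosomal, NF-kB and interferon-stimulated lists lie right of the line, and lymphocyte cytokines, interferons and markers of T cells, epithelium and fibroblasts lie mostly left of it.

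The receptors and transducers of the LPS signal were mostly on, and 3 of them, CD14, MAPKAPK2 and IRAK1, had a mean of at least 100 FPKM. Of 22 members of the TLR4 list, 19 were on, 1 was between and 2 were at the floor, with a median of 5.96 FPKM. TLR4 itself had 1.48, 1.08 and 1.07 FPKM, the lowest mean of the 19, and LY96, its MD-2 partner, 3.13, 4.03 and 4.51 FPKM. The adaptors MYD88 (39.9, 31.7 and 32.6 FPKM) and TICAM1 (40.2, 39.7 and 40.9 FPKM) were higher. All 14 kinases and ligases of the list were on, led by MAPKAPK2, the p38 target kinase, with 107, 106 and 109 FPKM, and by IRAK1 with 104, 103 and 112 FPKM. LBP, the liver's serum LPS-binding protein, had 0, 2 and 0 counts. TICAM2, the other member at the floor, had 3, 0 and 0 counts, but 93.4% of its exonic bases lie in other genes. Of 9 other Toll-like receptors, 3 were on (TLR2 at 58.1, 51.3 and 54.1 FPKM, then TLR1 and TLR8), and TLR10 and TLR9 were at the floor. TLR9 has 86.3% of its exonic bases in other genes, so its value is not read as absence.

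All 17 NF-kB subunits and brakes were on, with a median of 72.8 FPKM. The 12 genes listed as brakes had a median of 107 FPKM and the 5 subunits one of 72.8 FPKM. Some brakes, such as CYLD (12.8, 9.49 and 9.90 FPKM), lay below most subunits. NFKBIA, the inhibitor that holds NF-kB in the cytoplasm, had 648, 769.7 and 771 FPKM. TNFAIP2, an NF-kB target that the list counts with the brakes, had 1197, 897 and 976 FPKM. TNFAIP3, the ubiquitin editor A20, had 203, 119 and 144 FPKM. The subunits ran from NFKB2 at 215, 257 and 266 FPKM down to REL at 6.41, 2.83 and 3.21 FPKM. Of 24 immediate early factors 23 were on, with JUNB (301, 365 and 376 FPKM) far above FOS (9.95, 8.72 and 8.40 FPKM), both being parts of AP-1, and with FOSB between.

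Inflammatory cytokines spanned more than 3 orders of magnitude. Of 29 genes, 24 were on, 4 between and 1 at the floor, and together they took 2.10%, 2.21% and 2.13% of the counts. After IL1B and TNF came IL23A, the specific subunit of interleukin-23, with 343, 412 and 402 FPKM. EBI3, a subunit of interleukin-27 and interleukin-35, had 187, 254 and 257 FPKM. Their partners were far lower: IL12B, which pairs with IL23A, had 2.34, 1.95 and 1.71 FPKM, IL27 had 2.37, 2.51 and 1.84 FPKM, and IL12A had 0.432, 0.288 and 0.483 FPKM. IL6 had 46.9, 65.8 and 65.1 FPKM, above the growth factor CSF3 (31.2, 42.7 and 42.8 FPKM) and below CSF2 (102, 157 and 148 FPKM). The antagonist IL1RN had 213, 205 and 215 FPKM, and the anti-inflammatory IL10 had 3.35, 2.89 and 3.76 FPKM. The cytokines made by T cells stood at the other end, with 0 of 11 on and 10 at the floor. IFNG, IL2, IL4, IL5, IL9, IL17A, IL17F and IL21 had 0 counts in all 3 libraries.

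Chemokines took more counts than any other inflammatory list here, 3.98%, 4.52% and 4.37% in libraries 1 to 3. Of 43 genes, 26 were on (60.5%, beside 45.1% of all genes), 8 between and 9 at the floor. Of the ligands of CXCR2 on neutrophils, the highest after CXCL8 were CXCL1 at 1095, 1255 and 1271 FPKM, CXCL2 at 1042, 1231 and 1162 FPKM and CXCL3 at 888, 964 and 987 FPKM. Other ligands of CXCR2 were lower, with PPBP at 113, 172 and 158 FPKM, CXCL5 at 55.0, 43.2 and 45.7 FPKM and CXCL6 at 39.5, 35.9 and 40.3 FPKM. CCL5, which draws T cells and monocytes, had 2029.8, 2858 and 2703 FPKM, and CCL20, the ligand of CCR6, 1049, 1359 and 1270.3 FPKM. The monocyte attractant CCL2 was lower, at 83.2, 96.8 and 98.7 FPKM. Of the 3 interferon-induced ligands of CXCR3, CXCL10 had 179, 168 and 167 FPKM and CXCL11 42.3, 38.7 and 38.6 FPKM, but CXCL9 had 1.99, 2.04 and 1.78 FPKM. CCL3L1 and CCL4L2 read above their near-identical neighbours, CCL3 at 52.3, 116 and 91.4 FPKM and CCL4 at 815, 1306 and 1188 FPKM. How reads were divided between the copies is not known, so the split within each pair is uncertain. CCL3 also has 74.6% of its exonic bases in exons of other genes. Chemokines of other settings, such as CCL11, CXCL14, CXCL17 and XCL2, had 0 counts.

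**Figure D5:**
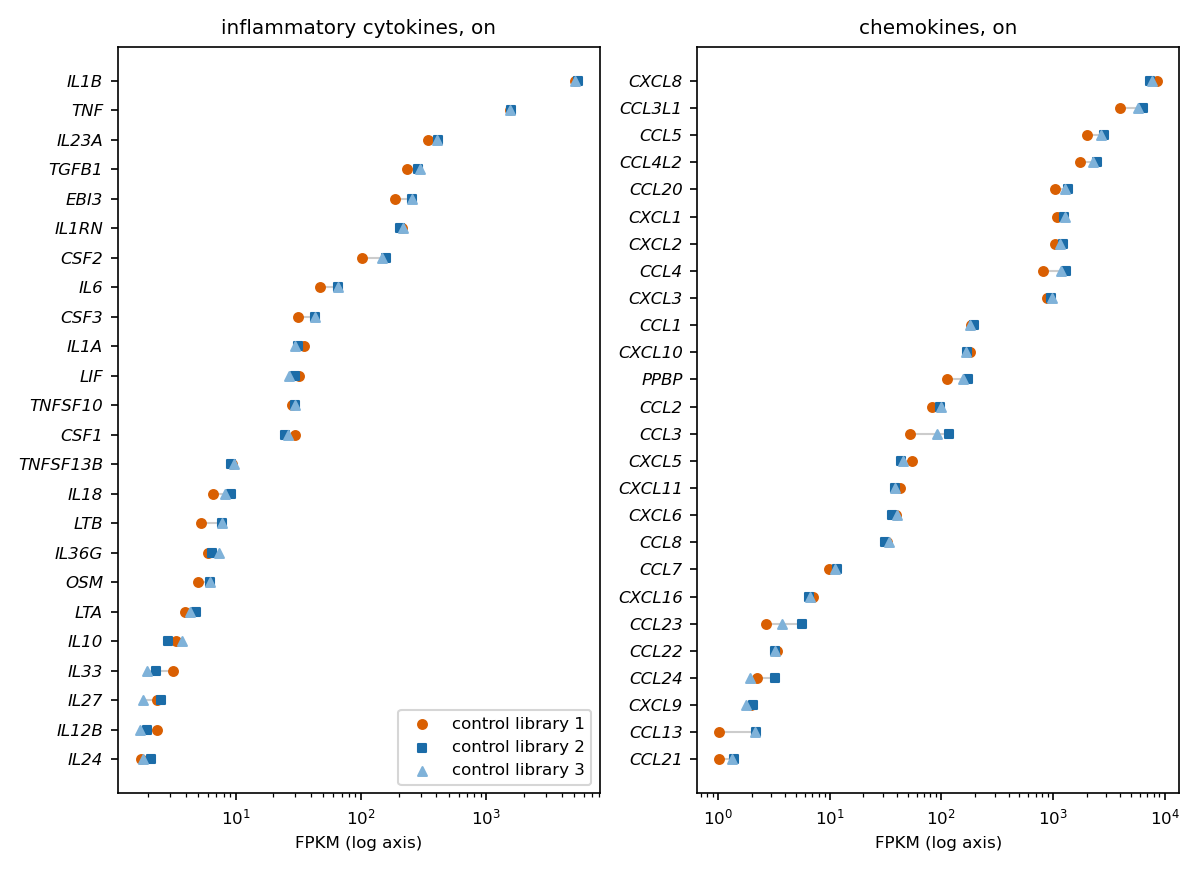
FPKM (log axis) in each control library of the inflammatory cytokines and chemokines that were on, ordered by mean. IL1B and TNF stand above the other cytokines, 9 chemokines lie near or above 1000 FPKM in the mean, and the 3 libraries keep nearly the same order.

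The 250 bases upstream of the start site show letters that NF-kB and interferon response factors are known to bind, and are printed for abundant inflammatory and interferon-stimulated genes among the top 25 because these factors are the end of the pathways above. RefSeq windows (GRCh38.p14) were at hand for CXCL8, IL1B, IFI6, ISG15 and TNF, 5 of the 8 such genes. CCL3L1, CCL5 and CCL4L2 are named only. Capitals mark GGAATTTCC (a kappa-B motif), a pair of GAAA spaced by 2 bases (a core of the interferon-stimulated response element) and TATAAA, the box that places RNA polymerase near the start site. The first pair of motifs was searched on both strands, the last on the strand of the gene. The windows lie at chr4:73740319-73740568 (plus strand, CXCL8), chr6:31575315-31575564 (plus strand, TNF), chr1:27672193-27672442 (minus strand, IFI6) and chr1:1013247-1013496 (plus strand, ISG15).
CXCL8: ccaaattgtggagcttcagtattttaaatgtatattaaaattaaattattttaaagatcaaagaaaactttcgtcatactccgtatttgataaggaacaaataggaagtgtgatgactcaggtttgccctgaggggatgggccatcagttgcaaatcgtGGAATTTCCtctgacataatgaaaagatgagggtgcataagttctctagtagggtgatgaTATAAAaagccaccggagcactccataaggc
TNF: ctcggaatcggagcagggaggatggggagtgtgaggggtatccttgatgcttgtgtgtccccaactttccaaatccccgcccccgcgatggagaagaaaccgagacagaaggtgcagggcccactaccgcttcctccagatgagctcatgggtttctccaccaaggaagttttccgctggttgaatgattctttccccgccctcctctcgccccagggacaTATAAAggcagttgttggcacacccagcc
IFI6: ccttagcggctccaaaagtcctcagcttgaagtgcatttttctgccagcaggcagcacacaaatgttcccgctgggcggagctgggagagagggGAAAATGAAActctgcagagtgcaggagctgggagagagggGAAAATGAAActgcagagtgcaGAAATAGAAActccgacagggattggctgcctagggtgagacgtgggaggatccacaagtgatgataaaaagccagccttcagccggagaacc
ISG15: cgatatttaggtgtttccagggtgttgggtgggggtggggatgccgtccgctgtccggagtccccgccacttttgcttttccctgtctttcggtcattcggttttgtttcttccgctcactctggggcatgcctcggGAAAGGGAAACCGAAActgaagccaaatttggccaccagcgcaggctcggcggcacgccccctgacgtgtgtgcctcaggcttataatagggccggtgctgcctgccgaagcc

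In CXCL8, GGAATTTCC lies from -91 to -83 and TATAAA from -31 to -26, counted from the start site. GGAATTTCC is the CXCL8 type of kappa-B motif, so its match in CXCL8 follows from its choice. IFI6 has 3 such GAAA pairs, from -156 to -147, -115 to -106 and -93 to -84, and ISG15 has 2 that overlap, from -113 to -104 and -107 to -98. Of these 3 motifs TNF holds TATAAA alone, from -29 to -24, and the IL1B window holds none. Over all 35116 windows, 0.413% hold GGAATTTCC, 3.02% hold the GAAA pair and 6.80% hold TATAAA. Over the 10577 windows of genes that were on, these shares were 0.473%, 2.69% and 3.58%. Among 49 windows of 37 cytokines and chemokines that were on, 8 (16.3%), that of CXCL8 included, hold GGAATTTCC and 17 (34.7%) TATAAA. Among 37 windows of 28 interferon-stimulated genes that were on, 22 (59.5%) hold the GAAA pair. Some genes thus count with several windows, and the other genes on in these lists had none at hand. A looser kappa-B motif, GGG and CC spaced by 5 bases on either strand, is in 54.4% of all windows. It is in 69.3% of the windows of genes that were on, and in 55.1% of those of cytokines and chemokines that were on. The windows of CXCL8, IFI6, ISG15 and TNF hold it too, in TNF from -101 to -92, without capitals. A match describes the letters of the window and not binding.

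All 40 interferon-stimulated genes of the list were on, with a median of 53.8 FPKM, beside 2 interferon genes. IFNB1, interferon beta, had 12.3, 17.4 and 15.0 FPKM, and IFNL1, interferon lambda 1, had 3.34, 3.63 and 3.17 FPKM. The other 9 interferon genes, IFNA1, IFNA2, IFNA5, IFNA8, IFNE, IFNK, IFNW1, IFNL2 and IFNL3, were at the floor. After IFI6 and ISG15 came IFITM3, which blocks virus entry, at 445, 730.2 and 741 FPKM, and BST2, tetherin, at 443, 760.2 and 708 FPKM. IFIT3, a partner of the RNA-binding IFIT1, had 382, 316 and 349 FPKM, and MX1, an antiviral GTPase, 8.501, 10.1 and 9.35 FPKM. Of these 40 genes, 17 were lowest and 21 highest in library 1. XAF1, a proapoptotic interferon product, varied most among those named here, with 8.22, 1.44 and 2.29 FPKM. IRF9, a subunit of the interferon-activated factor ISGF3, was lowest at 1.99, 1.97 and 1.69 FPKM, with 48.4% of its exonic bases in other genes.

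Most effector enzymes of inflamed macrophages were on. Of 20 enzymes 16 were on and 4, NOS2, ARG1, PTGES and ALOX15, between. CYBA, a subunit of the phagocyte NADPH oxidase, had 218, 424 and 378 FPKM. PTGS2, cyclooxygenase-2, had 253, 159 and 168 FPKM, and ACOD1, which makes itaconate, 207, 176 and 194 FPKM. NOS2, the inducible nitric oxide synthase, had 0.0959, 0.0427 and 0.115 FPKM, and ARG1, arginase 1, 0, 0.0846 and 0.114 FPKM. Of 18 inflammasome genes 11 were on (61.1%, beside 45.1% of all genes). The sensor NLRP3 had 137, 94.7 and 112 FPKM, CASP1 28.5, 30.4 and 32.8 FPKM and the pore former GSDMD 20.7, 32.6 and 33.4 FPKM. The sensors NLRC4, NAIP, NLRP1 and NLRP6 were between. Of 24 antioxidant and metal genes 17 were on. After ferritin came TXN, thioredoxin, with 184, 308 and 249.9 FPKM, and PRDX1, a peroxiredoxin, with 174, 225 and 215 FPKM, while the iron exporter SLC40A1 had 0.153, 0.260 and 0.0727 FPKM. GPX1 and CCL3L3, the other members listed for these programmes, were not analysed here.

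The macrophage and monocyte list was partly on, and the label was checked against it. Of 36 genes 26 were on, 8 between and 2 at the floor. FCER1G, TYROBP (483, 879.7 and 849 FPKM), which carries signals of activating receptors, and ITGB2 (816, 791 and 849 FPKM), the beta chain of leukocyte integrins, led together with the secreted SPP1, osteopontin, at 750.1, 888 and 863 FPKM. CSF1R, the receptor for the macrophage growth factor, had 195, 152 and 168 FPKM. The scavenger receptors MSR1 (16.3, 12.3 and 13.9 FPKM) and CD163 (13.2, 9.01 and 11.3 FPKM) were on. MARCO, a further scavenger receptor, had 0.261, 0.512 and 0.727 FPKM, and the mannose receptor MRC1 had 5, 2 and 6 counts, with no exon overlap. The complement chains C1QB and C1QC were at the floor and C1QA had 6, 0 and 4 counts, again without overlap at C1QA and C1QB. LYZ, lysozyme, abundant in blood monocytes, had 3.52, 2.48 and 2.54 FPKM, with 34.0% of its exonic bases opposite another gene. CD68 is set aside for the overlap given above.

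Other lists of the lineage are given beside the 45.1% of all genes that were on and the median of 0.757 FPKM over all genes. Of 19 myeloid transcription factors 18 were on and MAF was between. They were led by SPI1 (PU.1) at 281, 428 and 409 FPKM and CEBPB at 142, 188 and 181 FPKM. Of 12 markers of classical blood monocytes 7 were on (58.3%, median 1.55 FPKM; 4 at a threshold of 2 FPKM), none above 100 FPKM in the mean. The alarmins S100A9 (10.2, 21.7 and 15.0 FPKM) and S100A8 (1.42, 1.90 and 1.84 FPKM) were on, CCR2 was between and FCN1 was at the floor. Of 9 promyelocyte and progenitor genes 3 were on (33.3%, median 0.702 FPKM), the granule proteins AZU1 (14.6, 29.96 and 27.0 FPKM), ELANE and PRTN3, while MPO was at the floor. Of 10 markers of tissue-resident macrophages 3 were on (median 0.141 FPKM), TMEM119, VSIG4 and FABP4, each under 10 FPKM. Of 19 genes of alternative activation 8 were on (42.1%, median 0.333 FPKM). CHI3L1 was in the top 25, and the next, the matrix protein FN1, had 36.8, 20.2 and 18.9 FPKM. RETNLB, F13A1 and SELENOP were at the floor. Of 9 osteoclast genes 7 were on (77.8%, median 6.90 FPKM), among them the fusion proteins OCSTAMP (28.0, 30.1 and 28.5 FPKM) and DCSTAMP (27.0, 25.3 and 26.2 FPKM), whereas CALCR, the calcitonin receptor, was at the floor.

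Presentation by MHC class I and class II stood far apart. Of 16 class I genes 14 were on, with a median of 57.3 FPKM. HLA-E had 342, 424 and 425 FPKM, HLA-B 246, 404 and 359 FPKM, and HLA-F and HLA-G 0 counts. Of 14 class II genes 5 were on (35.7%), with a median of 0.464 FPKM, beside 45.1% and 0.757 FPKM over all genes. CTSS, the protease that trims the invariant chain, had 165, 162 and 174 FPKM, HLA-DRB1 44.0, 71.6 and 66.0 FPKM and the invariant chain CD74 51.3, 57.8 and 64.2 FPKM. HLA-DRA, which pairs with HLA-DRB1, had 8, 5 and 11 counts with no exon overlap, and CIITA, the master activator of class II, 0.0697, 0.0754 and 0.0577 FPKM. Genes of the HLA family share sequence, so the division of reads among them is uncertain.

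Matrix-degrading and lysosomal genes were abundant. All 21 matrix genes were on, with a median of 70.7 FPKM. MMP14, a membrane-bound protease, had 1437, 1243 and 1345 FPKM, the collagenases MMP1 643, 758 and 701 FPKM and MMP8 623, 441 and 453 FPKM, and PLAUR, the urokinase receptor, 384, 504 and 499 FPKM. This list varied little between libraries, with a median CV of 7.75%, beside 15.5% for all genes. Of 25 lysosomal genes 22 were on, led after CTSL by the saposin precursor PSAP at 641, 634 and 665 FPKM. HEXA and ATP6V0C were between.

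Cell cycle genes were on but low, beside a high level of one inhibitor. Of 16 genes of G2 and mitosis 13 were on (6 at a threshold of 2 FPKM), with a median of 2.24 FPKM, and of 16 of G1/S and replication 14 were on, with a median of 3.88 FPKM. MKI67, a proliferation antigen, had 1.76, 1.24 and 1.42 FPKM, TOP2A, topoisomerase II alpha, 3.41, 1.89 and 1.71 FPKM, and MCM7, a replicative helicase subunit, 17.5, 19.9 and 20.1 FPKM. Of 10 cell cycle inhibitors 7 were on, 1 was between and 2 were at the floor, with a median of 6.56 FPKM. CDKN1A, the p21 inhibitor of cyclin-dependent kinases, had 737, 694 and 739 FPKM, while CDKN2A and CDKN2B had 0 counts. In a bulk library, few cycling cells and little RNA per cell cannot be told apart. In glycolysis 18 of 20 genes were on, GAPDH at 792, 892 and 874 FPKM. Of 21 cytoskeletal genes 20 were on. FLNA, filamin A, was the one that was not, with 57, 159 and 124 counts and 0.416% of its bases in other genes. All 77 cytosolic ribosomal protein genes, a list added after the data were seen, were on with a median of 158 FPKM, but they ran from RPL41 at 645, 1126 and 954 FPKM down to RPL17 at 1.32, 1.19 and 1.15 FPKM. Of 9 translation factors 7 were on, led by EEF1A1 at 1272, 1428 and 1366 FPKM, and all 13 protein genes of the mitochondrial genome were on, with a median of 1157 FPKM. Many of the ribosomal protein genes have processed copies elsewhere in the genome, so single values are uncertain.

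Markers of most other cell types were on less often than the 45.1% of all genes, as counts without a test, and those of dendritic cells about as often. None of 9 epithelial and none of 11 erythroid and megakaryocyte markers was on, with 7 and 8 at the floor. Summed over the list, epithelial markers reached 0.0526, 0.0760 and 0.203 FPKM. Of 13 markers of T and NK cells 2 were on (0 at a threshold of 2 FPKM), NKG7 (1.31, 3.67 and 3.08 FPKM) and NCR1, and CD3G, CD2, CD8A, CD8B and LCK had 0 counts. Of 9 B cell markers 2 were on, FCRLA (34.4, 37.9 and 33.4 FPKM) and CD22, and MS4A1 and BLK were at the floor. Of 10 neutrophil markers 2 were on, MMP8 and CSF3R, and CXCR1, LCN2, CAMP, CEACAM8 and MME had 0 counts. PECAM1, which monocytes also carry, was the only endothelial marker on of 8, at 46.6, 37.7 and 40.1 FPKM, with CDH5 at 0 counts. Of 9 fibroblast markers 2 were on, COL1A1 and PDGFRA, both below 2 FPKM. Of 11 dendritic cell markers 5 were on (45.5%, median 0.702 FPKM, beside 0.757 FPKM over all genes), led by the chemokine receptor CCR7 at 31.2, 34.1 and 36.1 FPKM, and CLEC9A and CLEC4C had 0 counts. Of 7 mast cell markers 2 were on, the tryptase TPSB2 and GATA2. Of 16 genes of RNA interference and of the response to transfected RNA 11 were on. The sensors DDX58 (RIG-I, 56.7, 51.5 and 53.7 FPKM) and IFIH1 (MDA5, 62.1, 47.3 and 51.5 FPKM) led, both being interferon-stimulated as well, and the slicer AGO2 had 16.6, 12.1 and 12.1 FPKM.

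The spread between libraries was larger than counting noise for most genes. The median CV on TMM-scaled CPM was 15.5% over 11949 genes, beside 5.37% for counting noise alone, and 6.24% without library 1. In a chi-square test of each gene's 3 counts with 2 degrees of freedom, adjusted by Benjamini-Hochberg at 0.05, 7548 of 12376 genes (61%) varied beyond counting noise, against 1645 without library 1. The common biological coefficient of variation of edgeR was 0.187, against 0.0633 without library 1. No pair of libraries agreed within sampling noise, the mean chi-square per gene being 80.7, 53.9 and 6.15 for libraries 1 and 2, 1 and 3, and 2 and 3. These values compare the libraries and not a condition. The median CV fell with abundance up to genes of 1000 to 10000 counts, where it was 12.0%, and was 15.4% in the 230 genes above 10000 counts.

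Among genes with a mean of at least 50 FPKM, the 10 with the lowest CV were RAB7A, the late endosome GTPase, ADIPOR1, PHLDA1, DEGS1, ANPEP (CD13), PABPC1, HNRNPA2B1, TPM3, NCL and SRSF5, at CVs between 0.613% and 1.41%. ANPEP, an ectopeptidase of myeloid cells, had 696, 631 and 651 FPKM, which unlike the CVs are not scaled by TMM. Of the 10 with the highest CV, 4 encode parts of the cytosolic or mitochondrial ribosome (RPLP2, RPL36, RPS28 and MRPL41), and the rest are POLR2L, C4orf48, S100A6, CIAO2B, NDUFB7 and MT-ND4L. Ribosomal genes are common among the 821 genes ranked, and their share there was not taken. Cytosolic ones alone were 55 of the 417 genes with a mean of at least 100 FPKM. RPLP2 had 182, 460.0 and 356 FPKM and POLR2L, a small subunit of the RNA polymerases, 38.7, 108 and 80.9 FPKM, both lowest in library 1. Of 77 cytosolic ribosomal protein genes 75 were lower in library 1 than the mean of libraries 2 and 3 on TMM-scaled CPM. Their median log2 difference was -0.86, beside 0.003 over all genes with at least 10 counts in each library. In the groups of genes of 2195 to 2992 and 2994 to 3712 bases that difference was -0.30 and -0.18, the list's median length being 3002 bases. These 77 genes took 3.33%, 5.97% and 5.03% of the counts. MT-ND4L, a subunit of complex I, went the other way, with 260.0, 87.0 and 92.7 FPKM, and CIAO2B, an iron-sulfur assembly factor, was high in library 2 alone, with 82.1, 156 and 82.8 FPKM. Outside these 20 genes, CAP1, an actin regulator chosen after its values were seen, had 1202, 483 and 638 FPKM. Of the 417 genes with a mean of at least 100 FPKM, library 1 was the lowest in 299 and the highest in 94.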

How the data were processed

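Libraries of poly-A RNA were sequenced from both ends, per the labels' protocols, and reads were processed with CASAVA, cutadapt and HISAT2 on GRCh38, per the submitters' processing notes. The counter, its strand setting, the annotation and all tool versions were not given in the sources used here. For each gene, the authors deposited raw counts per library, and FPKM that they scaled by exonic length and by library total, as checked from the counts. Members, gene lists and rules were chosen with earlier results of these data known. Named are the 5 marker genes, the 25 highest mean FPKM, the 10 highest and 10 lowest CVs at a mean of at least 50 FPKM, and list members beside their list's counts. Counts were scaled by TMM in edgeR 4.0.16 (R 4.3.3), which also gave the dispersion with an intercept only. Log2 CPM had 0.5 CPM added. Python 3.11.15 with scipy 1.17.1 did the rest. The chi-square and dispersion steps were tested on simulated data. Exon overlap came from GENCODE release 29, matched for 19914 identifiers, of which 10893 had identical coordinates there. For the others the overlap shares may differ from those in the authors' annotation. Where SOD2 or another symbol has several identifiers, lists use the one with most counts. Alternatives were other thresholds, units, DESeq2 1.42.0 size factors and leaving out each library. No comparison of siRNAs was made.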

Additional observations from a re-analysis of the deposited data

How the results depend on the processing

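The counts of genes on, of genes at the floor and of list members on stayed within 1.5-fold under every alternative run: 7369 to 11423 genes on, 4065 to 7237 at the floor, and 387 to 454 distinct members of the 40 written lists (ribosomal proteins aside) on, against 434. Of 200 counts for single lists, 193 stayed within that range, none leaving it when a library was left out. The 7 that moved were, at 2 FPKM, classical monocyte (4, against 7), G2 and mitosis (6, against 13), T and NK cell (0, against 2), fibroblast (0, against 2) and RNA interference (7, against 11), and, at 0.5 FPKM, other Toll-like receptors (5, against 3) and endothelial (2, against 1). The number of genes holding 50% of the total was 150, and 468 with CPM in place of FPKM. Leaving out 1 library gave 136 to 161. Most of the spread rested on library 1. Leaving out each library in turn gave median CVs of 6.24% to 17.4%, 1645 to 7199 genes beyond counting noise and a biological coefficient of variation of 0.0633 to 0.241, the low end of each being without library 1. The length trend of library 1 (rho 0.54) was 0.46 with genomic span, 0.60 over genes with a mean of at least 100 counts, and 0.52 and 0.53 without libraries 2 and 3. The last pair was added after seeing the data, as was leaving out genes with at least 50% exon overlap (8933 on, 5048 at the floor). No value reversed. No paired analysis was possible because the values describe 1 group, in which replicate numbers pair no samples. Depth limits statements on genes near 3 counts.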
